A study of Homo sapiens with 6 samples.

Results

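The TAM receptors AXL, TYRO3 and MERTK and their protein ligands GAS6 and PROS1 were followed between ALK inhibitor-sensitive and -resistant neuroblastoma (NB) cells. They were found by name: a probe set, the group of probes on the array that reads a transcript, was taken as a member where the platform annotation gave it 1 gene symbol and that symbol was one of these. This gave 10 of 54613 probe sets and 5 of 19775 genes, with a gene's brightest probe set over the 6 arrays standing for it and its others given beside. SH-SY5Y is a human NB cell line carrying the ALK F1174L mutation, which makes the receptor tyrosine kinase (RTK) ALK active, and it was kept in medium without inhibitor (0 µM TAE684). SY5Y-TR1 was derived from it by long exposure to rising doses of the ALK inhibitor TAE684, carries the same mutation and was kept in the same medium with 1 µM TAE684. It is the expansion of 1 subclone, so what belongs to resistance, to that clone and to the drug in the medium cannot be told apart. For each line 3 Affymetrix U133 Plus 2.0 arrays were hybridized, labelled as biological replicates, whereas the submitters' design text speaks of replicates run of each sample. The p-values therefore measure the spread between these arrays.

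TAM receptors are RTKs with immunoglobulin-like and fibronectin-type repeats outside the cell. GAS6 and protein S, the product of PROS1, bind phosphatidylserine on dying cells through a vitamin K-dependent Gla domain and the receptors through their other end, which lets phagocytes such as macrophages and microglia clear dead cells and damp inflammation. GAS6 binds every TAM receptor and AXL most tightly, whereas protein S activates TYRO3 and MERTK. In tumor cells AXL is known for signaling to the ERK and AKT pathways and for its link to drug resistance, and in the nervous system TYRO3 is found mainly on neurons.

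Signals are log2 values made by RMA (robust multi-array average), a method that removes background, puts the arrays on a common distribution and summarizes the probes. The word called stands for a fold of 2 or more, a log2 difference of 1, together with an adjusted p under 0.05. As no detection calls were used, genes that belong to unrelated tissues set a background level: it is 5.83, the 90th percentile of their mean signals over 47 such genes. Between arrays of a line the correlation over all probe sets ran from 0.997 to 0.998, and between lines from 0.959 to 0.960. In all, 2245 of 19775 genes were called (11.4%), 1060 higher (5.36%) and 1185 lower (5.99%), and the median log2 difference of all genes was 0.04. The noradrenergic neuroblast markers stood apart between the lines. Of 11 measured, 8 were called lower, among them DDC, which makes dopamine (at least 44.4-fold), and STMN2, a neuronal microtubule regulator (21.1-fold). The mean log2 signal over the list was 10.11 to 10.14 on the SH-SY5Y arrays and 7.39 to 7.57 on the SY5Y-TR1 arrays, and TH, the first enzyme of catecholamine synthesis, did not exceed the background level in either line. What part this difference has in those below was not tested.

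AXL and GAS6 are the members that read higher in SY5Y-TR1 cells, and the 250 bases before the RefSeq start of each are shown, since factors reported to act on AXL transcription are described further on. Capitals mark matches to GGGCGG, the core of an SP1 site, or to CANNTG, the E-box that factors of epithelial-mesenchymal transition such as TWIST and SNAIL proteins read, searched on both strands (CCGCCC is GGGCGG read from the other strand). Both are written 5′ to 3′ along the gene, from RefSeq on GRCh38.p14, AXL from chr19:41218973-41219222 on the plus strand and GAS6 from chr13:113864077-113864326 on the minus strand.
AXL: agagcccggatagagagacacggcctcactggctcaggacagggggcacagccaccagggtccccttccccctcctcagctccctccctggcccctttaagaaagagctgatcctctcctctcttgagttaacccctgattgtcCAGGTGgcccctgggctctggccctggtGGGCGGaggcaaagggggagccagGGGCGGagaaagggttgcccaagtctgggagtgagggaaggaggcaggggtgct
GAS6: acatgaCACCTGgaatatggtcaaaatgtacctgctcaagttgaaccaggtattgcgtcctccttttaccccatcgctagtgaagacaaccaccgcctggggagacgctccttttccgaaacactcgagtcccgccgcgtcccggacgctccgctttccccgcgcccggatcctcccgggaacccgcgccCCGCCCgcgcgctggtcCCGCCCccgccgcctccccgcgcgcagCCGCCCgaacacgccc

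The AXL window held GGGCGG 2 times, 78 and 54 bases before the start, and an E-box 106 bases before it. The GAS6 window held GGGCGG 3 times, 60, 43 and 16 bases before the start, and an E-box 244 bases before it. Of all 35116 RefSeq windows of this length, 42.6% held GGGCGG and 61.8% an E-box, so these matches are common. G and C made up 64.4% of the AXL window and 66.8% of the GAS6 window, where the median over all windows was 58.0%. Neither window held TGANTCA, the AP-1 motif, which 6.57% of all windows held, or GGAATG, the TEAD motif, which 11.9% held. A second AXL start had its own window, chr19:41226505-41226754, with GGAATG 212 bases before the start and E-boxes 79 and 10 bases before it. Among the members that read lower, the MERTK window held GGGCGG 4 times, the PROS1 window 2 times and the first TYRO3 window 3 times, and that TYRO3 window alone among the members' windows held TGANTCA, 220 bases before the start. A match here describes letters, not a bound site.

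AXL was the 1 member of 5 called, where 11.4% of all genes were called in either direction. Probe set 202686_s_at read log2 signals of 7.52, 7.29 and 7.28 on the SH-SY5Y arrays and 11.08, 11.19 and 11.10 on the SY5Y-TR1 arrays. Every SY5Y-TR1 array lay far above every SH-SY5Y array, and all 6 lay above the background level, so AXL mRNA was measured in the parental line too. The log2 difference was 3.76 (SE 0.07, 95% limits 3.59 to 3.94, n = 3 arrays a line, limma adjusted p = 5.57e-08), a 13.6-fold higher signal. It ranked 75 among the increases of all 19775 genes. With both AXL probe sets averaged it was 2.22, and both carry names that Affymetrix gives to probe sets shared between transcripts. In RNA of whole cultures, more cells that carry AXL and more AXL RNA per cell cannot be told apart.

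The other AXL probe set, 202685_s_at, gave a much smaller difference in the same direction. Its log2 signals were 5.91, 5.90 and 5.77 in SH-SY5Y and 6.60, 6.34 and 6.69 in SY5Y-TR1. The arrays of the lines did not overlap, but 1 of the 3 SH-SY5Y arrays lay below the background level and the other two just above it. The log2 difference was 0.68 (SE 0.10, 95% limits 0.45 to 0.91, limma adjusted p = 0.00089 over all probe sets), 1.60-fold, and it was not called. Probe sets of a gene often fell on both sides of the call on these arrays, but how often they differed as widely as those of AXL was not counted. Of 1849 genes with at least 2 probe sets of which at least 1 was called, all were called for 464 (25.1%).

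**Figure D1:**
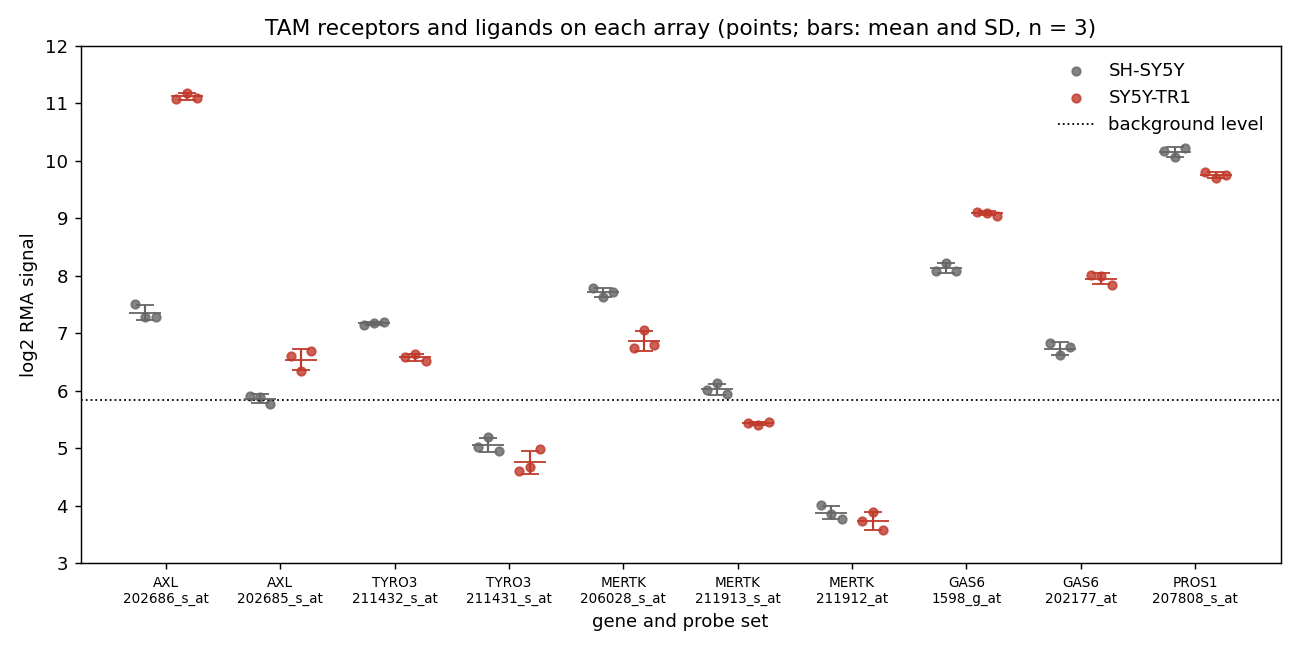
Log2 RMA signal (y axis) of all 10 probe sets of the TAM receptors and ligands (x axis) on each array; points are the 3 SH-SY5Y (grey) and 3 SY5Y-TR1 (red) arrays, horizontal bars with whiskers give the mean and SD, and 5.83, the background level, is dotted. AXL goes from 7.36 to 11.12 through its brighter probe set, GAS6 is higher in SY5Y-TR1 through both of its probe sets, and TYRO3, MERTK and PROS1 read lower through their brightest ones.

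TYRO3 and MERTK both read lower in SY5Y-TR1 cells and were not called. TYRO3, through 211432_s_at, read 7.15, 7.18 and 7.20 in SH-SY5Y and 6.59, 6.64 and 6.52 in SY5Y-TR1 on the log2 scale. The lines did not overlap, and SY5Y-TR1 was the lower. The log2 difference was -0.59 (SE 0.05, 95% limits -0.71 to -0.48, limma adjusted p = 3.88e-05), 1.51-fold lower and under the fold limit. The second TYRO3 probe set, 211431_s_at, lay at or under the background level on all 6 arrays (log2 difference -0.31, adjusted p = 0.0641 by limma over all probe sets) and its lines overlapped. TYRO3P, a pseudogene of TYRO3, was at the background level in both lines through both of its probe sets.

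MERTK, the receptor through which macrophages engulf dying cells, read 7.79, 7.64 and 7.73 in SH-SY5Y and 6.75, 7.06 and 6.79 in SY5Y-TR1 through 206028_s_at. The lines did not overlap here either, with SY5Y-TR1 again the lower. The log2 difference was -0.85 (SE 0.09, 95% limits -1.07 to -0.63, limma adjusted p = 0.00018), a 1.80-fold lower signal that did not reach the fold limit. A dimmer probe set, 211913_s_at, read 6.01, 6.13 and 5.94 against 5.44, 5.40 and 5.46. All 3 SY5Y-TR1 arrays of this probe set were under the background level, which leaves a bound of at least 1.14-fold lower (log2 difference -0.60, limma adjusted p = 0.000201 over all probe sets). The third, 211912_at, was at the background level in both lines, and its lines overlapped.

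Defining markers of macrophages and blood cells, which carry MERTK and AXL in tissues, were mostly at the background level. Of 10 measured, 6 had neither line above the background level, PTPRC (CD45) and CD14 among them, and 1 was called, where 11.4% of all genes were. The called gene was LAPTM5, a lysosomal protein of blood cells (at least 1.64-fold higher in SY5Y-TR1, through 1 of 2 probe sets, and not called once values were raised to the background level). CSF1R, a macrophage receptor of the same list, had means above that level in both lines, 6.06 in SH-SY5Y and 6.48 in SY5Y-TR1. It was 1.33-fold higher (limma adjusted p = 0.000525) and not called. At an adjusted p under 0.05 the list had 2 genes higher and 0 lower, where 28.5% and 24.3% of all genes were. The mean log2 signal over this list was 4.82 to 4.94 on the SH-SY5Y arrays and 5.09 to 5.15 on the SY5Y-TR1 arrays. None of 5 Schwann cell and none of 8 endothelial markers was called by limma or by the methods' t-test, against the same 11.4% of all genes. Of these markers 0 and 4 had an unadjusted p under 0.05, where 57.2% of all genes did. Their list means lay below the background level on all arrays, at 4.71 to 4.91 and 4.73 to 4.99. The brightest of them lay just above it: SOX10, the neural crest factor of Schwann cells, on all 6 arrays (6.11 against 6.18), ERBB3, a neuregulin receptor, at 5.88 against 6.02, and PECAM1 (CD31), an endothelial adhesion molecule, at 5.92 against 6.02. CLDN5, a tight junction protein of endothelium, lay above it in SY5Y-TR1 alone, at 5.97 against 5.70.

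GAS6, the ligand that binds AXL most tightly, read higher in SY5Y-TR1 cells and lay at the edge of the fold limit. Through 1598_g_at its log2 signals were 8.08, 8.23 and 8.08 in SH-SY5Y and 9.11, 9.10 and 9.05 in SY5Y-TR1. No SY5Y-TR1 array came within the range of the SH-SY5Y arrays. The log2 difference was 0.96 (SE 0.06, 95% limits 0.82 to 1.09, limma adjusted p = 7.42e-06), 1.94-fold, and was not called. Without SH-SY5Y replicate 2 it was 1.01 and was called.

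The second GAS6 probe set fell on the other side of that limit. Probe set 202177_at read 6.83, 6.62 and 6.76 in SH-SY5Y and 8.01, 7.99 and 7.84 in SY5Y-TR1, again with no overlap. Its log2 difference was 1.21 (SE 0.08, 95% limits 1.03 to 1.40, limma adjusted p = 1.2e-05 over all probe sets), 2.32-fold, and it was called higher, as were 3.79% of all probe sets. Of the 10 member probe sets 2 were called, both higher, where 8.37% of all probe sets were called in either direction and 4.58% lower. The 95% limits of the brighter probe set span a log2 difference of 1, and those of the other lie above it. With both averaged the difference was 1.08 and was called.

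PROS1, which encodes the anticoagulant protein S, had a single probe set, 207808_s_at, well above background. It read 10.17, 10.06 and 10.22 in SH-SY5Y and 9.81, 9.70 and 9.75 in SY5Y-TR1. The lines did not overlap, with SY5Y-TR1 the lower. The log2 difference was -0.40 (SE 0.06, 95% limits -0.53 to -0.26, limma adjusted p = 0.000799), 1.32-fold lower, so the ligands differed in opposite directions and neither was called through its brightest probe set.

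All 5 genes passed an adjusted p under 0.05 with no fold limit, 2 higher and 3 lower, but so did 52.8% of all genes, 28.5% higher and 24.3% lower. All 5 also had lines that did not overlap, as did 59.8% of all genes, 32.6% with SY5Y-TR1 above and 27.2% with it below. The median log2 difference of the 5 genes was -0.40, against 0.04 over all genes. The log2 difference of AXL exceeded that of GAS6 by 2.81, that of PROS1 by 4.16, that of TYRO3 by 4.36 and that of MERTK by 4.61. The log2 difference of GAS6 exceeded that of PROS1 by 1.35, whereas those of MERTK and TYRO3 lay 0.26 apart. Each of these 6 comparisons gave p = 0.1 in a two-sided exact permutation test over the arrays, raw and adjusted over the 6, the smallest value that 3 arrays against 3 allow.

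**Figure D2:**
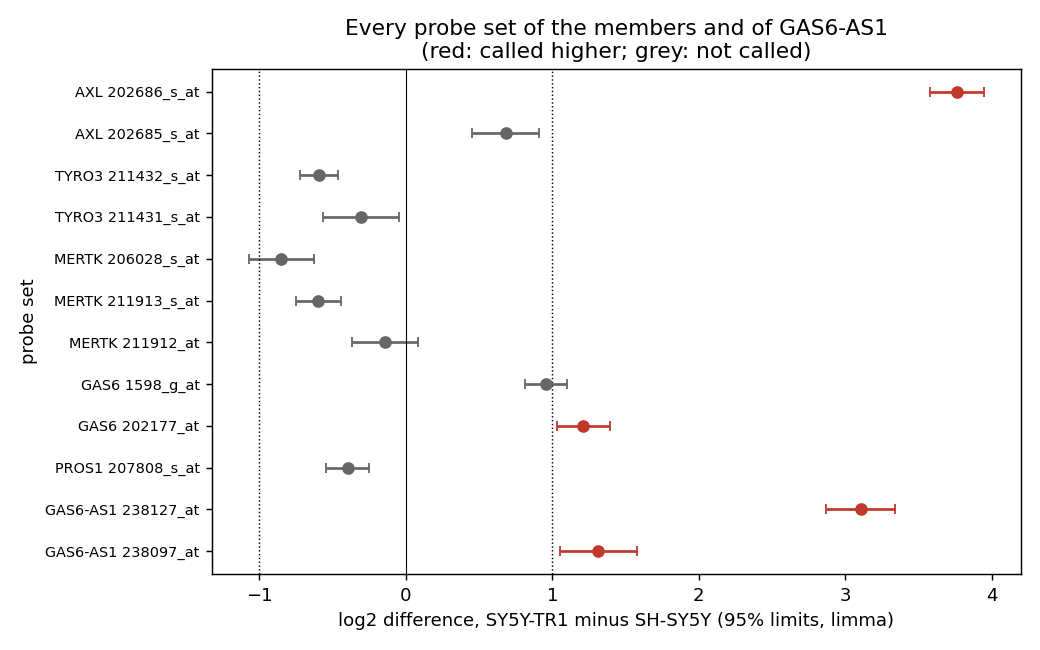
Log2 difference (x axis, SY5Y-TR1 minus SH-SY5Y) of each probe set of the members and of GAS6-AS1 (y axis) with 95% limits from limma fitted over all probe sets; red marks probe sets called higher, grey those not called, and dotted lines a fold of 2. AXL 202686_s_at stands at 3.76 and its other probe set at 0.68, the GAS6 probe sets fall at 0.96 and 1.21 on either side of the limit, and GAS6-AS1 reads 3.10 and 1.31.

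Beside GAS6 on chromosome 13, the antisense transcript GAS6-AS1 also read higher in SY5Y-TR1. It is not a member and was picked after its values were seen, as a named gene that overlaps GAS6 in RefSeq. Probe set 238127_at read 5.33, 5.51 and 5.50 in SH-SY5Y, all under the background level, and 8.48, 8.75 and 8.43 in SY5Y-TR1. It was at least 6.59-fold higher (log2 difference 3.10, SE 0.10, limma adjusted p = 3.6e-07). Its other probe set, 238097_at, was also called and at least 1.65-fold higher. Because the probe sequences were not used here, the strand that each probe set reads was not checked, and the part of GAS6 RNA in these signals was not tested. The genes on either side of AXL on chromosome 19 were not called. CYP2S1, a cytochrome P450, was at the background level in both lines, and HNRNPUL1, a nuclear ribonucleoprotein, had a log2 difference of -0.33 (SE 0.04, limma adjusted p = 0.000543).

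Other proteins reported to bind TAM receptors moved in opposite directions. LGALS3, the galactose-binding lectin galectin-3 and a reported MERTK ligand, was 4.08-fold higher in SY5Y-TR1, at a log2 signal of 12.13 ± 0.05 (SD, n = 3) against 10.10 ± 0.07 (SD, n = 3), and its other probe set was not called. TUB (tubby), reported as a bridging ligand of MERTK, was 4.74-fold lower, at 7.31 ± 0.08 (SD, n = 3) against 9.55 ± 0.05 (SD, n = 3), but only through the brightest of its 4 probe sets, the others having log2 differences of 0.32, -0.09 and -0.25. TULP1, its relative, which acts in photoreceptors, was at the background level in both lines.

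GAS6 and protein S need vitamin K-dependent carboxylation of their Gla domains. Of 6 measured genes of this cycle 1 was called, where 11.4% of all genes were, NQO1, a quinone reductase that can also reduce vitamin K, 3.44-fold higher, and the median log2 difference was 0.45. The carboxylase GGCX itself had a log2 difference of 0.08 (SE 0.06, limma adjusted p = 0.325). The reductases VKORC1 and VKORC1L1 of this cycle had log2 differences of 0.20 and -0.20 (SE 0.05 each). AIFM2 (FSP1), another quinone reductase, and CALU, an inhibitor of the carboxylase, had log2 differences of 0.80 and 0.69, short of the fold limit. Among 11 measured genes of other Gla proteins, 1 was called higher and 1 lower, where 5.36% and 5.99% of all genes were, with a median of 0.20 and 5 genes at the background level in both lines. PRRG1, a membrane Gla protein, was at least 8.35-fold higher, with every SH-SY5Y array under the background level, and MGP, a calcification inhibitor, was 4.82-fold lower.

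AXL and MERTK can be cut from the cell surface by ADAM10 and ADAM17 and then within the membrane by gamma-secretase. Of 9 measured genes of this machinery, none was called by limma or by the methods' t-test. At an unadjusted p under 0.05 there were 8, where 57.2% of all genes were, and at an adjusted p under 0.05 there were 6 higher and 2 lower, where 28.5% and 24.3% of all genes were. The list median was 0.42, and with probe sets averaged 2 genes were called. ADAM10 and ADAM17 had log2 differences of 0.42 (SE 0.04) and 0.43 (SE 0.04), 1.33- and 1.35-fold higher. Of the gamma-secretase subunits, APH1B and NCSTN had log2 differences of 0.77 and 0.59, and APH1A of -0.64.

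Among 24 measured adaptors and effectors of TAM receptors, 1 was called higher and 2 lower, a count of 3 where 11.4% of all genes were called, and the median log2 difference was -0.03. IFNAR1, an interferon receptor chain with which AXL interacts in dendritic cells, was 2.10-fold higher, through 2 of 4 probe sets. ELMO1, which works with DOCK1 to activate the GTPase RAC1 during engulfment, was at least 3.12-fold lower, and VAV3, a signaling protein of the VAV family, at least 1.31-fold lower. The log2 differences of GRB2 (0.01), DOCK1 (0.10) and RAC1 (-0.03) were small, and TNS2, an AXL-binding tensin, stood at 0.98, just short of the limit.

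Of 11 measured genes of the MAPK and AKT cascades below the receptors, none was called by limma or by the methods' t-test, 8 had an unadjusted p under 0.05 (57.2% of all genes did), and the median log2 difference was 0.10. The kinases MAP2K1 (MEK1) and PDPK1 had log2 differences of 0.44 (SE 0.05) and 0.43 (SE 0.04). These are mRNA levels and say nothing of phosphorylation. Of 10 measured genes of HSP90 and its cochaperones, which fold kinases such as AXL, none was called by limma or by the methods' t-test, while all 10 had an unadjusted p under 0.05, against 57.2% of all genes. At an adjusted p under 0.05 there were 3 higher and 7 lower, against 28.5% and 24.3% of all genes, and the median was -0.22. HSP90AA1, the inducible HSP90, read 13.99 against 14.13 (log2 difference -0.14, SE 0.04), and the cochaperone PTGES3 read 13.03 against 13.31.

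Phosphatidylserine, the lipid that GAS6 and protein S bridge to the receptors, has its own scramblases and other receptors. Of 19 measured genes of this group 1 was called higher, where 5.36% of all genes were. It was ITGB5, an integrin chain that takes part in binding dying cells through MFGE8 (3.26-fold). At an adjusted p under 0.05 there were 10 higher and 1 lower, where 28.5% and 24.3% of all genes were. The median log2 difference was 0.29. ANXA5, which binds phosphatidylserine, and MFGE8 had log2 differences of 0.99 and 0.87, short of the fold limit.

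Factors reported to act on AXL transcription changed in both directions. Of 16 measured, 5 were called higher and 2 lower, where 5.36% and 5.99% of all genes were, and the median log2 difference was 0.05. EPAS1 (HIF-2alpha), a hypoxia-inducible factor, was 12.4-fold higher through the 1 bright probe set of its 3, at 12.96 ± 0.02 (SD, n = 3) against 9.33 ± 0.07 (SD, n = 3), whereas HIF1A had a log2 difference of -0.07. The TEAD coactivators WWTR1 (TAZ) and YAP1 were 3.41- and 2.15-fold higher, each through all 3 of its probe sets, while TEAD2, a DNA-binding partner of both, was 2.10-fold lower through 1 of 4.

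The AP-1 subunits divided as well. FOSL1 and FOSL2 were 2.51- and 2.50-fold higher (the latter through 3 of 5 probe sets), and FOS was 9.55-fold lower, at 5.95 ± 0.10 (SD, n = 3) against 9.20 ± 0.18 (SD, n = 3). JUN had a log2 difference of 0.41. SP1 and SP3, which bind motifs like those shown above for AXL and GAS6, read lower in SY5Y-TR1, with log2 differences of -0.52 and -0.37.

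**Figure D3:**
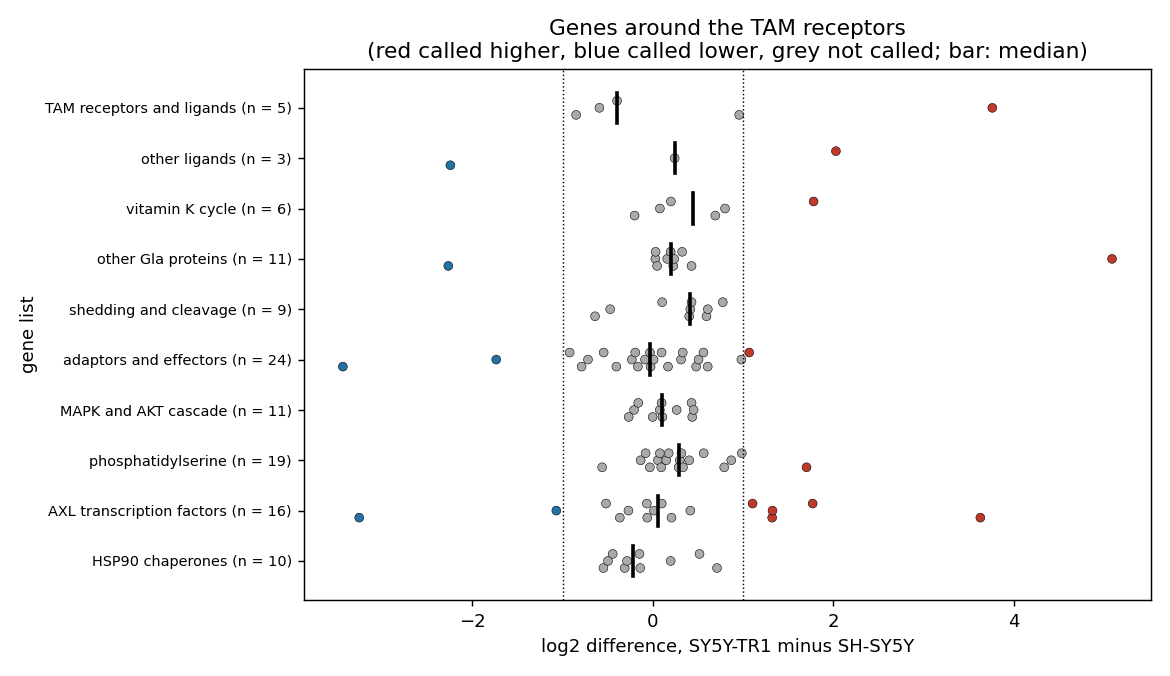
Log2 difference (x axis, SY5Y-TR1 minus SH-SY5Y) of every measured gene of 10 lists around the TAM receptors (y axis, n = genes measured); red and blue points are genes called higher and lower, grey ones not called, black bars the list medians and dotted lines a fold of 2. AXL is the red point at 3.76 in the top row, and the factors reported to act on AXL transcription hold 5 red and 2 blue points.

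AXL was also set among the other RTKs of a fixed list, not all of which were measured by a probe set with 1 symbol. Of 55 measured, 6 were called higher and 7 lower, where 5.36% and 5.99% of all genes were, 42 were not called, 18 of the 55 were at the background level in both lines, and the median log2 difference was 0.01. With probe sets averaged, 8 were called and not 13. AXL ranked 3 by its fitted log2 difference, after MET, the receptor for HGF, at least 20.4-fold higher, and EPHB1, an ephrin receptor, at least 5.30-fold higher. Through the probe sets that stand for them both were below the background level in SH-SY5Y, unlike AXL. The bound for MET is above the 13.6-fold of AXL. That for EPHB1 is not, so the place of EPHB1 ahead of AXL rests on signals under that level. MET and EPHB1 were called through 2 of 4 and 2 of 3 probe sets, and another MET probe set, with a mean above background in both lines, had a log2 difference of 0.27. Next came the VEGF receptor FLT1, the ephrin receptor EPHA2 and the PDGF receptor PDGFRB, at 2.81-, 2.62- and 2.35-fold.

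TYRO3 and MERTK ranked 46 and 47. ALK, the target of TAE684, read 5.74, 5.87 and 6.03 in SH-SY5Y, near the background level, and 4.90, 4.90 and 5.09 in SY5Y-TR1, all under it (log2 difference -0.92, SE 0.09, limma adjusted p = 9.88e-05), which leaves a bound of at least 1.03-fold lower, and was not called. The last ranks by fitted log2 difference were those of RET, the GDNF-family receptor of noradrenergic neuroblasts, at least 33.2-fold lower through its brightest probe set, with log2 differences of -1.60 and -1.75 through the others, also called, and of ERBB4, a neuregulin receptor, at least 1.75-fold lower and called through 1 of 4.

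**Figure D4:**
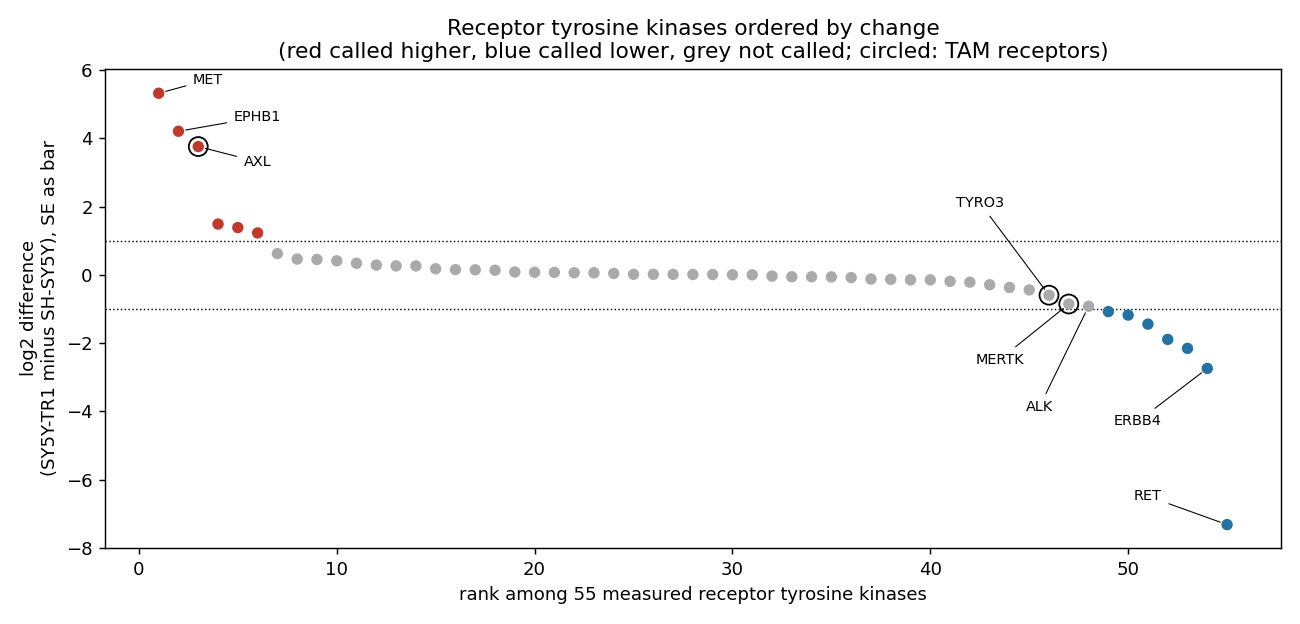
Log2 difference (y axis, SY5Y-TR1 minus SH-SY5Y) of 55 measured receptor tyrosine kinases ordered by rank (x axis); red and blue points are called higher and lower, grey ones not called, circles mark AXL, TYRO3 and MERTK, dotted lines mark a fold of 2, and SE bars are mostly smaller than the points. AXL is rank 3 behind MET and EPHB1, whose SH-SY5Y signals lay under the background level, and TYRO3 and MERTK lie at ranks 46 and 47, inside the limit.

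The genes whose profile was most like that of AXL were PLOD2, F2RL2, SCG5, HSPB7 and COL1A1. Likeness was the root mean square difference between profiles over the 6 arrays, each gene centred on its own mean, among 12599 genes with at least 1 line above the background level, and these 5 differed from AXL by 0.08 to 0.11 on the log2 scale. With 2 lines, such likeness rests almost wholly on a similar difference between them. PLOD2 modifies collagen lysines, COL1A1 is a chain of type I collagen, F2RL2 is a thrombin receptor, SCG5 a secretory granule chaperone and HSPB7 a small heat-shock protein. F2RL2 read 6.92 in SH-SY5Y and 10.70 in SY5Y-TR1, a log2 difference of 3.78 against 3.76 for AXL, and all 5 were called higher. PLOD2 read 3.06 in SH-SY5Y, under the background level, and 6.75 in SY5Y-TR1. This leaves a bound of at least 1.88-fold, so its likeness to AXL rests on signals under that level. HSPB7 was called through 1 of 2 probe sets and COL1A1 through 3 of 5.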

How the data were processed

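Total RNA of 6 samples, 3 of each line, was hybridized by the authors to U133 Plus 2.0 arrays, and they deposited log2 signals made with RMA in Affymetrix Expression Console, per the submitters' processing notes, its version not being given in the sources used here. RMA's background correction, quantile normalization and summary could not be varied; scanner files and detection calls were not used here. Array medians ran from 5.56 to 5.59; precision is limited by the number of arrays. After 62 control probe sets were left out, 41091 of 54613 carried 1 symbol, 1801 several and 11721 none; no probe set with several symbols included a member. Genes were fitted with limma 3.58.1 (lmFit, eBayes; R 4.3.3) with no block for replicate number, and Benjamini-Hochberg adjustment ran over all 19775 genes, or over all probe sets for a gene's other probe sets. The limits of 2-fold and 0.05 follow a legend of the study. Where the dimmer line was at or under the background level on every array, the fold is a bound ("at least"), the brighter mean over that level or over the dimmer mean if higher.

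The members, the gene lists and the rules were chosen with earlier results of these data known. Named are all members, per list the 2 genes with the widest called rise and the 2 with the widest called fall, or the 2 brightest where none was called, all other ligands, ALK and the 5 genes most like AXL; GAS6-AS1, the neighbours of AXL, TYRO3P and further genes of the lists were added after their values were seen. Tested on simulated data of 19775 genes with 200 changed, the fit recovered at least 96% of log2 changes of 1.5 and 100% of log2 changes of 3 in each of 5 simulations, with 0 false calls. Sizes close to the 2-fold limit were not tried. The simulated spread was that between SH-SY5Y arrays (median SD 0.07), which left little room for false calls at the 2-fold limit. The simulations therefore do not give the error rate of the real comparison. Same-numbered arrays did not deviate together (correlations of -0.02, -0.03 and 0.01), and the main fit had no block. These values cannot tell whether same-numbered cultures were handled together. Promoter windows came from a RefSeq table on GRCh38.p14. Alternatives were another choice of probe set, scaling, floor, filter, threshold or test, and each array left out.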

Additional observations from a re-analysis of the deposited data

How the results depend on the processing

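AXL was called higher under all 16 alternatives that gave it a value, with log2 differences from 2.22 (mean of both probe sets) to 3.84, and no member changed direction. With the fold limit kept, GAS6 was the member that became called, with probe sets averaged per gene (1.08) and without SH-SY5Y replicate 2 (1.01), where leaving out single arrays gave 0.93 to 1.01. The number of members called was accordingly 2 with the mean of probe sets and 1 to 2 without single arrays. Without probe sets of shared-sequence names, taken as those ending in _s_at, _x_at or _a_at, it was 0. AXL, TYRO3 and PROS1 then had none left, and MERTK was read by its background-level probe set at -0.14. GAS6 stayed at 0.96 through 1598_g_at, because this rule did not cover names ending in _g_at. A rule that also dropped 1598_g_at was not tried. At an adjusted p under 0.05 with no fold limit the number of members called was 5 (GAS6 0.96, TYRO3 -0.59, MERTK -0.85, PROS1 -0.40), with 5634 genes higher and 4813 lower. Leaving out single arrays gave 3.72 to 3.84 for AXL, -0.62 to -0.56 for TYRO3, -0.95 to -0.79 for MERTK and -0.44 to -0.36 for PROS1, and 1030 to 1082 genes higher and 1172 to 1206 lower.

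With the mean of probe sets 8 RTKs were called, not 13, and 2 genes of the shedding list, not 0. LAPTM5 was not called with values raised to the background level or without shared-sequence probe sets, and in the latter NQO1, LGALS3 and MGP had no probe set left or a dim one.

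The labels number the replicates but do not state a pairing between the lines. With a replicate block the AXL log2 difference stayed at 3.76 (limma adjusted p = 1.22e-05) and that of GAS6 at 0.96 (0.000158), with 1 member, 1060 genes higher and 1185 lower called, and no member's call changed.

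With 3 arrays a line and 1 clone, these values describe SY5Y-TR1, not resistant cells in general. Signals near 5.83 limit the dimmer AXL, TYRO3 and MERTK probe sets, and ALK.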
